A study of Mus musculus with 27 samples.

Results

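RNA from whole liver was compared between 3 female mice after resolution (Res) and 3 female mice on the Western diet with alcohol (WDA), 6 of the 27 libraries of the series, chosen by their labels. All 6 mice were Kdm5b fl/fl and received an adeno-associated virus (AAV) that carries no Cre, so the floxed gene was left in place. They are called WT. The WDA mice (5, 6 and 7, experiment 11) carry the label of AAV8-control with 8 weeks of WDA. The Res mice (1, 12 and 13, experiment 12) carry the label of 16 weeks of WDA, then AAV-control and 4 weeks of resolution. In the study's methods, resolution meant ordinary chow and plain water, the resolving mice had a surgical liver biopsy when the alcohol was withdrawn, and their virus was given afterwards, whereas mice studied on the diet received it at the start of feeding. Diet, alcohol, length of feeding, age at collection, biopsy, time since the virus and experiment all changed together, and their parts in any difference cannot be told apart. The study's text describes longer feeding than the label of the WDA mice, and which length applies to them was not settled here. The labels give no age, and each library is 1 mouse.

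The liver makes fat and cholesterol from acetyl-CoA under separate regulators: SREBP1 and LXR favour fatty acid synthesis and desaturation, while SREBP2 responds to a fall in membrane sterol by raising the enzymes of cholesterol synthesis. LXR, which senses oxysterols, also raises the pumps that move sterol out of the cell. The liver also differs between the sexes: the female pattern of growth hormone release, acting through STAT5b, keeps a group of cytochrome P450 and sulfotransferase genes high in females. In bulk tissue, fewer cells of a type and less RNA per cell cannot be told apart.

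The libraries held 16570678 to 18175886 estimated reads on genes, and values are CPM, counts scaled to a common library size after TMM normalisation. WDA mouse 7 and Res mouse 13 stood apart from the other 4 on the first principal component of log2 CPM (54.3% of the variance), while the second (23.9%) placed the 3 WDA mice between 22.9 and 30.9 and the 3 Res mice between -27.5 and -25.6. Albumin was the most counted gene in all 6 libraries. The Y-linked genes Ddx3y and Kdm5d had 0 counts in the WDA females and 0 to 11 counts in the Res females.

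**Figure D1:**
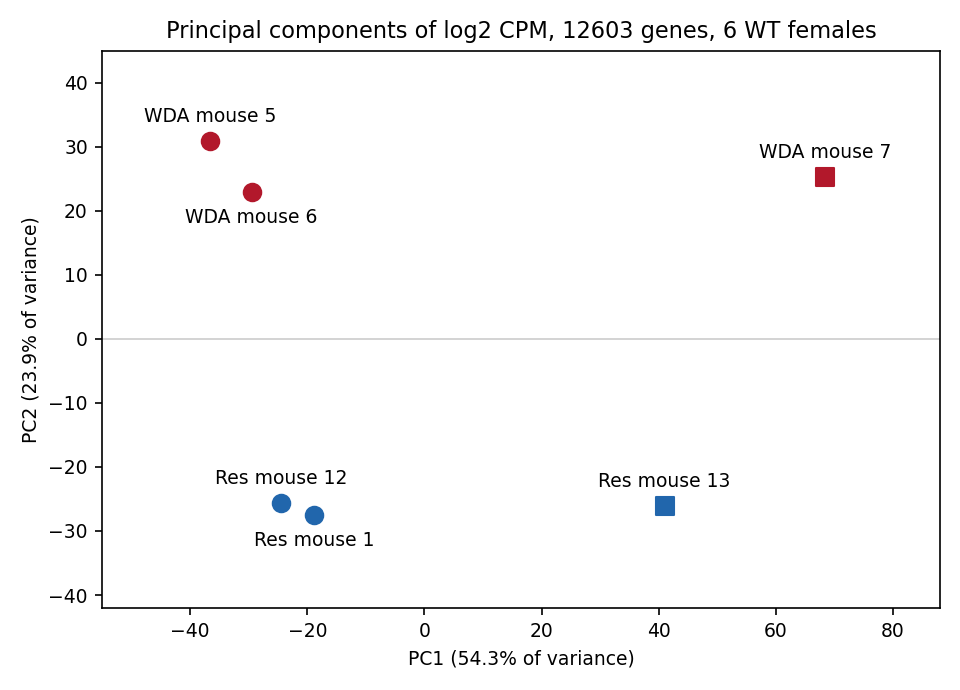
First and second principal components of log2 CPM for the 6 WT females, with WDA mice in red, Res mice in blue and squares for WDA mouse 7 and Res mouse 13. PC1 (54.3%) sets WDA mouse 7 and Res mouse 13 apart from the other 4, and PC2 (23.9%) separates WDA from Res.

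The markers of the bile duct and of the ductular reaction, in which duct-like cells expand in injured liver, show how far these 2 mice lay from the rest. The summed level of the 17 genes of that list was 65.2 to 74.8 CPM in the other 4 mice, 677.6 CPM in WDA mouse 7 and 361.8 CPM in Res mouse 13. Spp1 (osteopontin) alone was 465 CPM in WDA mouse 7 and 225 CPM in Res mouse 13, against 13.6 to 30.4 CPM in the others. The lipid-laden macrophage gene Gpnmb was 279.5 CPM in WDA mouse 7 and 63.7 CPM in Res mouse 13, against 2.08 to 3.23 CPM. Cyp2e1, the ethanol-oxidizing P450 of hepatocytes around the central vein, was 834 CPM in WDA mouse 7 and 3475 CPM in Res mouse 13, against 8808 to 10325 CPM. Res mouse 13 also held transcripts of the exocrine pancreas, a neighbouring organ: the 9 genes of that list summed to 317 CPM, with Amy2a5 (pancreatic amylase) at 153 CPM, against sums of 2.15 to 3.66 CPM in the other 5 mice. Vmn2r3, a vomeronasal receptor gene, was 23.9 CPM in WDA mouse 7 and at most 0.0655 CPM in the other 5. Each result below is therefore given with and without WDA mouse 7 where that mouse decides it.

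**Figure D2:**
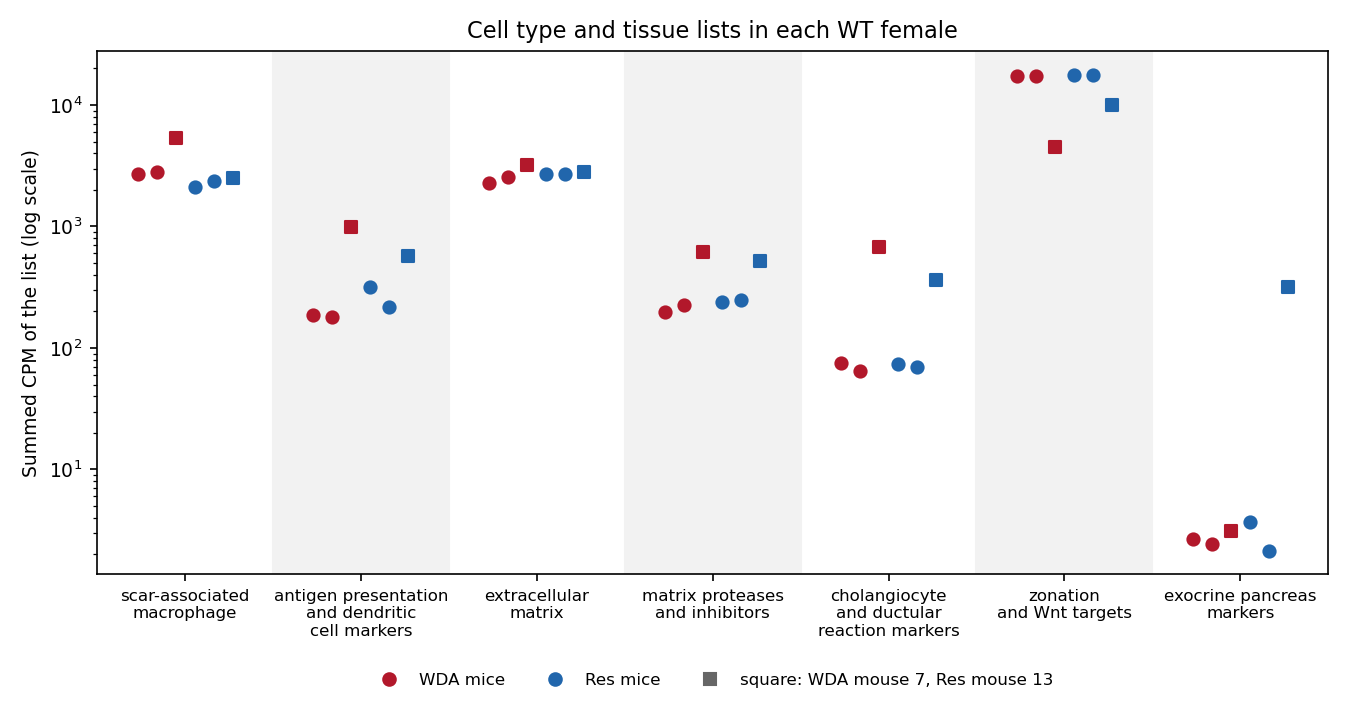
Summed CPM (log scale) of 7 gene lists in each WT female, with WDA mice in red, Res mice in blue and squares for WDA mouse 7 and Res mouse 13. WDA mouse 7 is highest for the ductular list (677.6 CPM) and lowest for the zonation list (4513 CPM), and the pancreas list is high only in Res mouse 13 (317 CPM).

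Over the 12603 genes tested, edgeR's quasi-likelihood test called 0 at an adjusted p under 0.05 (0.0%), with 1716 genes at an unadjusted p under 0.05 and a smallest adjusted p of 0.184. DESeq2 on the same counts called 209 genes higher after resolution (1.66%) and 195 lower (1.55%). In 1298 genes (10.3%) all 3 Res mice lay above all 3 WDA mice, and in 1303 (10.3%) all lay below. These shares are the background for each count of list members without overlap given below. Without WDA mouse 7, edgeR called 15 genes of 12705 (0.118%), 14 of them lower and 1 higher, and DESeq2 called 439 higher (3.46%) and 650 lower (5.12%). limma voom with a weight for each library, which gave WDA mouse 7 the lowest weight of 0.22, called 183 genes higher and 237 lower. Leaving out any other single mouse gave 0 calls in edgeR. The word called below names the tool and the mice each time, since the answer differs with both.

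Several genes of fatty acid desaturation and elongation were lower after resolution. Scd1, the stearoyl-CoA desaturase that makes monounsaturated fat, was 26107, 21756 and 9667 CPM in WDA mice 5, 6 and 7 and 1543, 819 and 1193 CPM in Res mice 1, 12 and 13. Every Res mouse lay far below every WDA mouse, with a log2 difference of -4.02 ± 0.50 (SE). It was called by DESeq2 (adjusted p = 5.80e-19) and, without WDA mouse 7, by edgeR (log2 -4.34, adjusted p = 0.0217). Elovl6, which lengthens palmitate, was 170.0, 97.2 and 71.6 CPM on WDA and 28.2, 54.8 and 31.9 CPM after resolution (log2 -1.56 ± 0.39, DESeq2 adjusted p = 0.00891). Fads2, the first desaturase of the polyunsaturated pathway, was 921, 1063 and 991 CPM on WDA and 671, 537 and 478 CPM after resolution (log2 -0.82 ± 0.21, DESeq2 adjusted p = 0.0028). Srebf1, the gene of the lipogenic factor SREBP1, was 199, 222 and 202 CPM on WDA and 111, 25.0 and 43.8 CPM after resolution (log2 -1.79 ± 0.51, DESeq2 adjusted p = 0.0171), and DESeq2 did not call it without WDA mouse 7 (adjusted p = 0.147).

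The enzymes that build the fatty acid chain did not follow. Fasn (fatty acid synthase) was 168, 133 and 80.2 CPM on WDA and 151, 127 and 84.8 CPM after resolution, so that the groups overlapped throughout. Acly, which supplies cytosolic acetyl-CoA, was 82.5 to 113.8 CPM on WDA and 91.1 to 112.2 CPM after resolution. Of the 22 genes of lipogenesis and triglyceride synthesis, all tested, 5 were lower and 2 higher without overlap, the same 7 were called by DESeq2 in those directions, and the median log2 difference was -0.33 (-0.37 without WDA mouse 7) against -0.02 over all genes.

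The 2 members on the high side were lipins, phosphatidate phosphatases of triglyceride synthesis that also act in the nucleus. Lpin1 was 25.6, 43.0 and 24.1 CPM on WDA and 242, 147 and 182 CPM after resolution, with every Res mouse above every WDA mouse (log2 2.62 ± 0.31, DESeq2 adjusted p = 1.15e-12). Lpin2 was 226, 324 and 242 CPM on WDA and 373, 457 and 473 CPM after resolution (log2 0.72 ± 0.21, DESeq2 adjusted p = 0.0322). Neither was called by edgeR without WDA mouse 7 (adjusted p = 0.0676 for Lpin1 and 0.148 for Lpin2).

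Cidec, which fuses lipid droplets into larger ones, was 63.1, 55.4 and 193 CPM on WDA and 18.7, 18.8 and 23.3 CPM after resolution. It was called by DESeq2 (log2 -2.36 ± 0.50, adjusted p = 0.000251) and, without WDA mouse 7, by edgeR (log2 -1.55, adjusted p = 0.0397). Plin2, the general coat protein of droplets, overlapped at 1048, 1074 and 1387 CPM on WDA and 704, 1103 and 577 CPM after resolution. Of 16 lipid droplet and lipolysis genes tested, 2 were lower and 0 higher without overlap, a share near the 10.3% of all genes, and 1 was called by DESeq2.

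Apoa4, an apolipoprotein of triglyceride-rich particles that rises with hepatic fat, was 4718, 4365 and 9511 CPM on WDA and 857, 974 and 1195 CPM after resolution. All 3 Res mice lay below all 3 WDA mice (log2 -2.62 ± 0.39, DESeq2 adjusted p = 5.83e-11), and edgeR called it without WDA mouse 7 (adjusted p = 0.0397). Apoc2, the cofactor of lipoprotein lipase, was 370, 375 and 478 CPM on WDA and 157, 164 and 216 CPM after resolution (log2 -1.19 ± 0.21, DESeq2 adjusted p = 7.92e-06). Of the 18 apolipoprotein and lipoprotein assembly genes, 3 were lower and 0 higher without overlap, and 2 were called by DESeq2. Without WDA mouse 7 DESeq2 called 7 of the 18 lower, and their median went from -0.24 to -0.54.

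Many genes of cholesterol synthesis were higher. Of the 26 genes of cholesterol synthesis and uptake, 11 were higher and 1 lower without overlap, against 10.3% in each direction over all genes. DESeq2 called 6 of them higher and 1 lower, and the median log2 difference was 0.83 (0.80 without WDA mouse 7, 1.04 without both WDA mouse 7 and Res mouse 13). The member Sqle did not reach 10 counts at the median depth in all WDA mice and passed the filter through the Res mice. In the other 25, 10 were higher and 1 lower without overlap, with a median of 0.81. Idi1, the isopentenyl diphosphate isomerase, was 6.62, 8.27 and 5.21 CPM on WDA and 55.4, 35.1 and 17.3 CPM after resolution (log2 2.42 ± 0.43, DESeq2 adjusted p = 2.51e-05). Cyp51, which demethylates lanosterol, was 8.58, 7.17 and 12.4 CPM on WDA and 72.3, 37.5 and 22 CPM after resolution (log2 2.22 ± 0.45, DESeq2 adjusted p = 0.00031).

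Sqle, the squalene epoxidase, was 0.59, 0.365 and 3.34 CPM on WDA and 15.8, 6.33 and 5.74 CPM after resolution, and its log2 difference of 2.66 ± 0.86 became 4.27 without WDA mouse 7. In Idi1, Cyp51, Sqle and Insig1 Res mouse 1 was the highest and Res mouse 13 the lowest of the 3. The INSIG proteins hold SREBP in the endoplasmic reticulum, and their genes differed in opposite directions. Insig1, itself an SREBP target, was 25.8, 34.1 and 16.0 CPM on WDA and 166, 65.9 and 45.2 CPM after resolution (log2 1.87 ± 0.52, DESeq2 adjusted p = 0.0148, but 0.139 without WDA mouse 7). Insig2 was 1266, 1187 and 886 CPM on WDA and 764, 688 and 687 CPM after resolution (log2 -0.64 ± 0.22, DESeq2 adjusted p = 0.0396). None of the 26 was called by edgeR with or without WDA mouse 7, where the adjusted p values of Idi1 and Cyp51 were 0.0875 and 0.0857.

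Genes of sterol export were lower. Abcg5 and Abcg8, the paired half-transporters that secrete sterol into bile and are known LXR targets, lie on chromosome 17 and were lower together. Abcg5 was 438, 401 and 214 CPM on WDA and 101, 80.9 and 133 CPM after resolution (log2 -1.74 ± 0.33, DESeq2 adjusted p = 5.85e-05). Abcg8 was 438, 405 and 178 CPM on WDA and 108, 97.6 and 128 CPM after resolution (log2 -1.61 ± 0.35, DESeq2 adjusted p = 0.000999). Without WDA mouse 7 edgeR called both, at adjusted p values of 0.047 and 0.0308. Abca1, which loads cholesterol onto HDL, was 323, 313 and 375 CPM on WDA and 160, 179 and 235 CPM after resolution (log2 -0.82 ± 0.20, DESeq2 adjusted p = 0.00507). Lpcat3, a phospholipid-remodelling acyltransferase and LXR target, was 213, 200 and 205 CPM on WDA and 147, 102 and 101 CPM after resolution (log2 -0.82 ± 0.20, DESeq2 adjusted p = 0.00946).

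The genes of LXR itself did not separate the groups: Nr1h3 was 58.9 to 89.7 CPM on WDA and 60.2 to 78.5 CPM after resolution. Of 11 tested genes of sterol efflux and LXR targets, 5 were lower and 0 higher without overlap, DESeq2 called 4 lower, and 1 of 11 had a positive log2 difference. The list median was -0.82 in all 6 mice, -0.24 without WDA mouse 7 and -0.71 without WDA mouse 7 and Res mouse 13. The macrophage-rich members Lpl and Abcg1 stood at 306 and 39.0 CPM in WDA mouse 7, against 20.7 to 116.9 and 10.01 to 15.1 CPM in the other 5 mice.

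**Figure D3:**
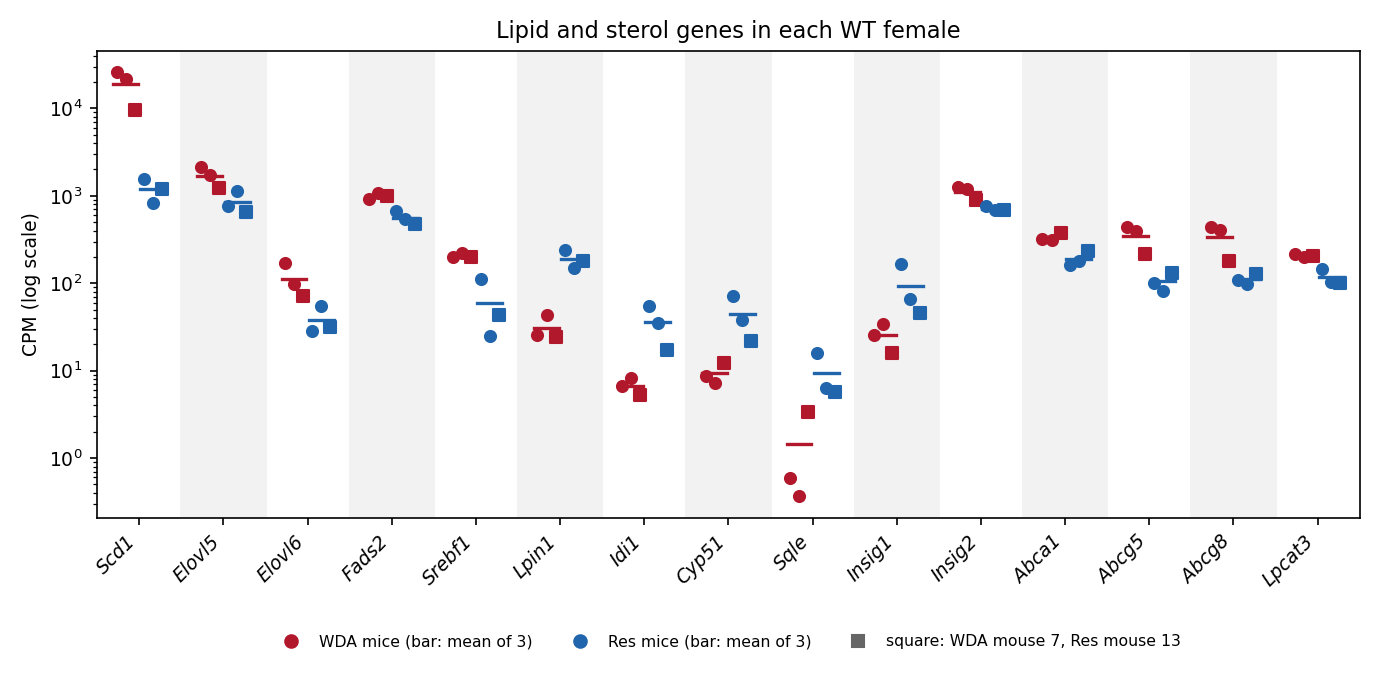
CPM (log scale) of 15 lipid and sterol genes in each of the 6 WT females, with WDA mice in red, Res mice in blue, bars at the mean of 3 mice and squares for WDA mouse 7 and Res mouse 13. Scd1 lies between 9667 and 26107 CPM on WDA and between 819 and 1543 CPM after resolution, while Lpin1, Idi1, Cyp51, Sqle and Insig1 lie higher after resolution.

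Many genes that are normally higher in female liver were higher after resolution. Of 24 tested members of 26, 13 were higher and 0 lower without overlap, against 10.3% in each direction over all genes, DESeq2 called 10 higher and 0 lower, and the median log2 difference was 1.74 (1.39 without WDA mouse 7, 1.6 without both mice). Of these, 5 (Cyp3a16, Cyp3a41b, Sult2a1, Sult2a5 and Sult3a2) reached the floor of 10 counts at the median depth in all 3 Res mice but not in all 3 WDA mice, so they passed the filter through the group in which they are high. In the other 19, 8 were higher and 0 lower without overlap, with a median of 1.14. A1bg, a secreted glycoprotein of female liver, was 4.52, 3.10 and 1.43 CPM on WDA and 19.4, 33.3 and 36.6 CPM after resolution. Its groups lay well apart (log2 3.32 ± 0.45, DESeq2 adjusted p = 4.13e-10), and it was the 1 gene that edgeR called higher without WDA mouse 7 (log2 2.97, adjusted p = 0.0477). Cux2, a homeobox repressor of male-type genes, was 1.64, 8.39 and 3.39 CPM on WDA and 27.2, 18 and 18.2 CPM after resolution (log2 2.24 ± 0.55, DESeq2 adjusted p = 0.00502).

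The hydroxysteroid sulfotransferases of the Sult2a family, which conjugate steroids and bile acids, went from almost no signal to a widely spread one. Sult2a1 was 0.459, 1.34 and 0.147 CPM on WDA and 13.8, 567 and 103 CPM after resolution (log2 8.48 ± 1.64, DESeq2 adjusted p = 3.85e-06). Sult2a2 was 2.75, 2.92 and 8.21 CPM on WDA and 40.0, 392 and 166 CPM after resolution (log2 5.41 ± 0.95, DESeq2 adjusted p = 1.16e-10). Sult2a3, which was not tested at this filter, had 0, 2 and 0 counts on WDA and 0.427, 36.9 and 3.44 CPM after resolution. In each of these Res mouse 12 was the highest and Res mouse 1 the lowest.

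The Cyp3a genes of steroid and drug oxidation also had Res mouse 12 highest. Cyp3a16 had 2, 5 and 0 counts on WDA and 8.85, 28.6 and 3.18 CPM after resolution (DESeq2 adjusted p = 9.56e-08), too few on WDA for a precise fold. Cyp3a44 was 1.97, 5.84 and 1.23 CPM on WDA and 38.5, 67.3 and 7.52 CPM after resolution (log2 3.66 ± 0.90, DESeq2 adjusted p = 0.000437). Cyp3a41a was 25.1, 138 and 5.01 CPM on WDA and 554, 2150 and 265 CPM after resolution, and its adjusted p in DESeq2 was 0.065. Reads of these families may be shared between members. The longest annotated transcripts of Cyp3a41a and Cyp3a41b are 99.7% identical over 2064 aligned positions, those of Cyp3a16 and Cyp3a41a 92.1% identical, and those of Sult2a1 and Sult2a5 94.5% identical, so the level of a single member is uncertain.

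Other well known female-biased genes showed no separation. Cyp2b9 was 868, 829 and 367 CPM on WDA and 587, 625 and 360 CPM after resolution, and Cyp2a4 was 521, 558 and 1373 CPM on WDA and 533, 554 and 798 CPM after resolution. The groups overlapped in each.

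The female-biased genes A1bg, Sult3a1 and Slc22a26, each with all Res mice above all WDA mice, hold the letters of a STAT5 site (TTCNNNGAA, either strand) in the 250 bases before their RefSeq start. They are the 3 of 23 list members with a promoter entry that hold it (13%), against 8.13% of all 27025 genes with an entry. The stretches are shown with the matching letters in capitals, on the strand of the gene in GRCm38.p6. A1bg lies on chr15:60921286-60921414 (minus strand), Sult3a1 on chr10:33857553-33857681 (plus strand) and Slc22a26 on chr19:7802740-7802868 (minus strand). A match of letters does not show that the factor binds there.
A1bg: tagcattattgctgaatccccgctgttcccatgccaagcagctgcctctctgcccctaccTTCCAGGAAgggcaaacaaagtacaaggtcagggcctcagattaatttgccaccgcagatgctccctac
Sult3a1: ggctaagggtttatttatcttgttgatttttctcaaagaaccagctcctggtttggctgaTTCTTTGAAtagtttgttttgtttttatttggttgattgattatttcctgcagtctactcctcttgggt
Slc22a26: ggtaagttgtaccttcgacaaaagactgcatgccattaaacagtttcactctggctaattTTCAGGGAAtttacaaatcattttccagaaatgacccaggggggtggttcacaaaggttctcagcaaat

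Sult3a1 itself was 9.50, 7.11 and 0.835 CPM on WDA and 52.0, 111 and 11.0 CPM after resolution (log2 3.33 ± 1.03, DESeq2 adjusted p = 0.0897). Slc22a26, an organic anion transporter, was 83.4, 86.1 and 14.3 CPM on WDA and 234, 204 and 98.3 CPM after resolution, and its adjusted p in DESeq2 was 0.161.

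Some male-biased genes were also higher, at low levels. Of 20 tested members, 5 were higher and 1 lower without overlap, against 10.3% in each direction over all genes, and the median log2 difference was -0.10. Here 4 members, Mup7 and Cyp4a12a among them, passed the filter through the Res mice. In the 16 that reached the floor in all WDA mice, 2 were higher, a share near the 10.3% of all genes, and 1 was lower. Serpina1e, an antitrypsin gene, was 13.2, 11.7 and 10.2 CPM on WDA and 153, 64.8 and 311 CPM after resolution (log2 3.91 ± 0.57, DESeq2 adjusted p = 2.11e-11). Mup7, a major urinary protein, was 2.29, 2.80 and 0.0983 CPM on WDA and 8.55, 34.9 and 33.9 CPM after resolution (log2 3.93 ± 0.95, DESeq2 adjusted p = 0.00118). Cyp4a12a, a fatty acid hydroxylase of male liver and kidney, was 0.262, 0.365 and 0.442 CPM on WDA and 1.77, 2.69 and 7.15 CPM after resolution (log2 3.40 ± 0.63, DESeq2 adjusted p = 0.000374).

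Y-linked transcripts moved with these values. By library total, the mean CPM of Ddx3y in the Res females was 0.719% of that in the WT Res males, and that of the WDA females was 0% of the WDA males. Eif2s3y, which has a close X-linked relative, stood at 4.02% of the male level after resolution and 1.58% on WDA, Uty at 1.20% and 0.26%, and Kdm5d at 0.663% and 0%. The same share after resolution was 0.156% for Mup7, 1.30% for Cyp4a12a and 2.46% for Serpina1e. Mup7 lay below all of these Y-linked genes. Cyp4a12a and Serpina1e lay below Eif2s3y but above Ddx3y, Uty and Kdm5d. The part of male transcripts in these differences was not tested. Cyp2d9 went the other way, with 217, 145 and 38.9 CPM on WDA and 45.7, 58.8 and 45.3 CPM after resolution: the groups overlap through WDA mouse 7, and edgeR called it lower without that mouse (log2 -1.86, adjusted p = 0.0477).

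**Figure D4:**
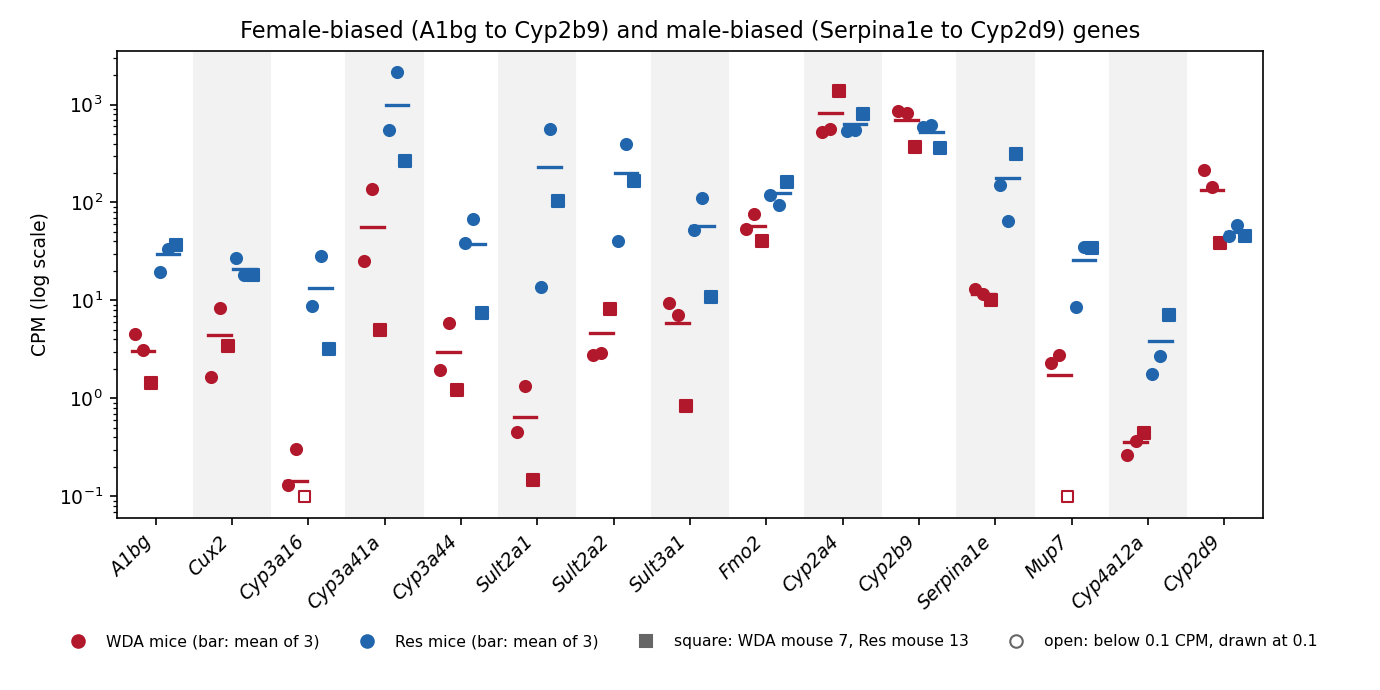
CPM (log scale) of 11 female-biased and 4 male-biased genes in each WT female, with WDA mice in red, Res mice in blue, bars at the mean of 3 mice, squares for WDA mouse 7 and Res mouse 13, and open symbols for values below 0.1 CPM drawn at 0.1. From A1bg to Fmo2 all Res mice lie above all WDA mice, while the groups overlap in Cyp2a4 and Cyp2b9.

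Some genes of fuel handling were higher. Pdk4, the kinase that shuts off pyruvate oxidation, was 30.1, 21.3 and 32.5 CPM on WDA and 95.8, 151 and 68.7 CPM after resolution (log2 1.91 ± 0.32, DESeq2 adjusted p = 1.35e-05). Txnip, a glucose-responsive inhibitor of thioredoxin, was 205, 181 and 231 CPM on WDA and 686, 452 and 381 CPM after resolution (log2 1.30 ± 0.26, DESeq2 adjusted p = 0.000354). Of 23 glucose metabolism genes, 3 were higher and 2 lower without overlap, shares near the 10.3% of all genes, and the median was -0.07. Without WDA mouse 7 that median was -0.37, and DESeq2 called 8 lower and 2 higher, against 0 and 2 with all mice. Of 26 genes of fatty acid oxidation and PPARalpha targets, 2 were higher and 1 lower, with a median of 0.14 (-0.05 without WDA mouse 7). The leptin receptor Lepr was 510, 299 and 136 CPM on WDA and 43.1, 101 and 81.9 CPM after resolution (log2 -2.07 ± 0.53, DESeq2 adjusted p = 0.00328).

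Cyp7a1, the rate-limiting enzyme of bile acid synthesis, was 144.8, 94.8 and 38.4 CPM on WDA and 224.7, 57.5 and 69.6 CPM after resolution, with overlap. Cyp39a1, an oxysterol hydroxylase of that pathway, was 44.6, 56.8 and 39.0 CPM on WDA and 106, 75.7 and 73.2 CPM after resolution (log2 0.86 ± 0.21, DESeq2 adjusted p = 0.0265). Of 17 tested genes of bile acid synthesis, 2 were higher and 1 lower without overlap, and of 11 bile acid and organic anion transporters 0 were. The synthesis list had a median of 0.19 with all mice and -0.04 without WDA mouse 7, where DESeq2 called 3 lower and 1 higher, against 0 and 1. The main ethanol dehydrogenase gene Adh1 was 2016, 1841 and 1232 CPM on WDA and 1222, 1324 and 867 CPM after resolution. Of 14 tested genes of alcohol, aldehyde and acetate metabolism, 1 was lower and 0 higher without overlap, and DESeq2 called 0 (1 lower without WDA mouse 7). Among 21 glutathione and NRF2 genes, 1 was higher and 2 lower, and DESeq2 called 0. Without WDA mouse 7 DESeq2 called 1 of them higher and 3 lower, and the median turned from -0.08 to 0.17. Rdh11, a gene of retinoid metabolism, was 13.6, 13.7 and 14.3 CPM on WDA and 25.5, 26.3 and 20.9 CPM after resolution (log2 0.81 ± 0.14, DESeq2 adjusted p = 0.00251). Metallothionein Mt1, which binds zinc, was 93.4, 184.7 and 252.4 CPM on WDA and 731, 254.8 and 369.6 CPM after resolution, with an adjusted p of 0.0924 in DESeq2.

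Of 19 clock genes, 3 were higher and 0 lower without overlap, against 10.3% in each direction over all genes. The list median was 0.04 (-0.15 without WDA mouse 7). Per1, a repressor of the clock that also answers glucocorticoids, was 14.8, 20.1 and 16.4 CPM on WDA and 89.7, 32.4 and 67.4 CPM after resolution (log2 1.89 ± 0.36, DESeq2 adjusted p = 0.000253). Cry1, its partner, was 12.8, 10.3 and 13.8 CPM on WDA and 29.8, 22.9 and 21.2 CPM after resolution (log2 1.0 ± 0.19, DESeq2 adjusted p = 0.00296). The activator Arntl was 25.1, 12.1 and 23.1 CPM on WDA and 39.4, 33.0 and 27.9 CPM after resolution, with an adjusted p of 0.247 in DESeq2. Dbp, a clock output gene, was 35.5 CPM in WDA mouse 6 and 1.85 to 5.31 CPM in the other 5, and the sources used here give no hour of collection.

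Per1 and Cry1 are shown because both hold the E-box of the clock activators (CACGTG) before an annotated start. So do 5 of 16 clock genes with an entry (31.2%), against 6.86% of all genes with an entry and 9.86% of the tested genes with one. The stretches lie on chr11:69098723-69098848 (Per1, plus strand) and chr10:85185055-85185174 (Cry1, minus strand) of GRCm38.p6, with the E-box in capitals. The Per1 gene spans chr11:69095108-69109965, so its stretch lies within the gene, before a later annotated start. The SREBP site (TCACNCCAC, either strand) was found in 1 of 18 genes of cholesterol synthesis and uptake with an entry, Hmgcs1, and in 1.22% of all genes.
Per1: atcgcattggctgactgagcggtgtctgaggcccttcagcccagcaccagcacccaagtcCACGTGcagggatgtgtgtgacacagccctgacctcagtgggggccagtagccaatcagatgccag
Cry1: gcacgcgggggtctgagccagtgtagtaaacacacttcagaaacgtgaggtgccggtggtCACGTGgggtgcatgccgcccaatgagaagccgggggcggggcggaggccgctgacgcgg

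Genes of the endoplasmic reticulum stress response leaned higher. Of 22 tested, 18 had a positive log2 difference, but 1 was higher and 1 lower without overlap, and the median was 0.30 (0.32 without WDA mouse 7). Herpud1, which serves the removal of misfolded protein, was 224, 220 and 138 CPM on WDA and 377, 584 and 543 CPM after resolution (log2 1.37 ± 0.28, DESeq2 adjusted p = 0.000251). Hspa5, the chaperone BiP, overlapped at 922, 434 and 641 CPM on WDA and 690, 1259 and 653 CPM after resolution. Trib3, a pseudokinase induced through ATF4, was 17.2, 10.7 and 93.6 CPM on WDA and 8.18, 6.51 and 5.85 CPM after resolution, and its log2 difference of -2.57 became -1.03 without WDA mouse 7.

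The WT males of the same 2 experiments gave a median of -0.73 over these 22 genes, with 3 positive, and edgeR called 7 of them lower there. In the test of the difference between the sexes, 12 of the 22 were at an unadjusted p under 0.05 in edgeR, all with the female difference above the male one. Over the whole table of 13152 genes, 1014 were at that level, 535 with the female difference above the male one and 479 below. After adjustment edgeR called 0 of these 22 and DESeq2 called 1. In KO females their median was -0.32, with 6 positive.

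Interferon-stimulated genes held a few lower members. Bst2 (tetherin), which retains budding virus at the membrane, was 160, 147 and 98.1 CPM on WDA and 69.7, 59.2 and 59.3 CPM after resolution. It was called by DESeq2 (log2 -1.11 ± 0.22, adjusted p = 0.000941) and, without WDA mouse 7, by edgeR (adjusted p = 0.047). Isg15, a ubiquitin-like modifier, was 9.17, 6.08 and 6.93 CPM on WDA and 3.97, 4.06 and 3.18 CPM after resolution (log2 -0.98 ± 0.25, DESeq2 adjusted p = 0.0431). Of the 20 tested, 4 were lower and 1 higher without overlap, against 10.3% in each direction over all genes. DESeq2 called 2 lower, and the median was -0.10.

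Among 20 acute phase genes, 2 were higher and 2 lower without overlap, and DESeq2 called 2 higher and 0 lower with all mice and 1 higher and 3 lower without WDA mouse 7. Hp (haptoglobin), which binds free haemoglobin, was 1894, 1863 and 1851 CPM on WDA and 3169, 2694 and 2690 CPM after resolution (log2 0.61 ± 0.21, DESeq2 adjusted p = 0.0011). Of 19 tested inflammatory cytokine and receptor genes, 0 were higher and 0 lower without overlap, and their median of -0.19 became 0.39 without WDA mouse 7. DESeq2 called 0 with all mice and 1 higher without that mouse, Vcam1 (adjusted p = 5.86e-06). Vcam1 was 10.5, 14.2 and 47.6 CPM on WDA and 28.9, 31.1 and 38.8 CPM after resolution.

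The matrix, protease, scar-associated macrophage and ductular lists had medians whose sign turned on WDA mouse 7, in which many of their genes were high, as they were to a lesser extent in Res mouse 13. Col1a1, the main scar collagen, was 3.60, 4.32 and 77.4 CPM on WDA and 3.36, 3.23 and 25.5 CPM after resolution. Trem2, a receptor of scar-associated macrophages, was 0.655, 1.03 and 30.4 CPM on WDA and 1.28, 1.08 and 9.92 CPM after resolution. In both genes the other 4 mice were alike. The median log2 difference over 23 extracellular matrix genes was -0.44 with all mice, 0.71 without WDA mouse 7 and -0.04 without WDA mouse 7 and Res mouse 13. For 18 scar-associated macrophage genes it was -0.82, 0.59 and -0.10, for 14 matrix proteases and inhibitors -0.39, 1.15 and 0.08, and for 11 ductular markers -0.29, 2.03 and 0.29. The medians over all genes were -0.02, 0.03 and 0.02 in the same fits.

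Without overlap, 1 of 23 matrix genes, 2 of 18 scar-associated macrophage genes and 1 of 11 ductular markers were lower, and 0 were higher. Postn (periostin), a matrix protein of activated stroma, was 19.7, 22.6 and 21.1 CPM on WDA and 13.2, 13.6 and 6.99 CPM after resolution, with an adjusted p of 0.09 in DESeq2. Krt23, a stress keratin of injured hepatocytes and ducts, was 23.3, 8.81 and 40.7 CPM on WDA and 0.977, 4.18 and 3.60 CPM after resolution (log2 -3.05 ± 0.69, DESeq2 adjusted p = 0.000481). Spp1, Epcam and Sox9 of the same list were high in Res mouse 13, where Krt23 was low.

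**Figure D5:**
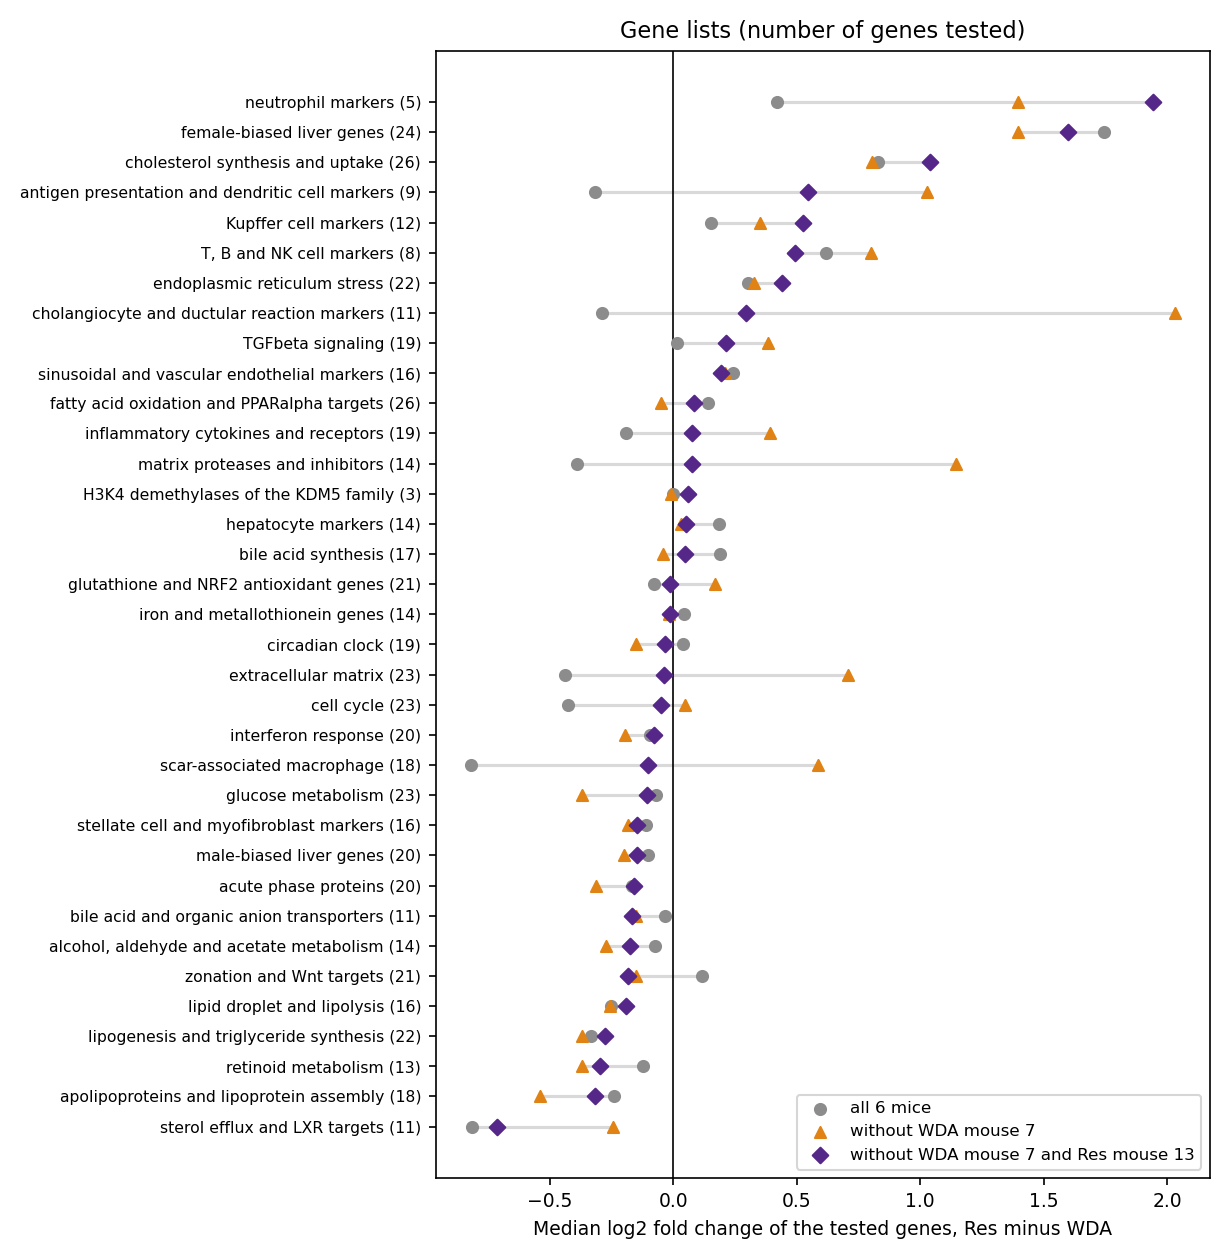
Median log2 difference, Res minus WDA, of 35 gene lists with the number of genes tested, for all 6 mice (grey circles), without WDA mouse 7 (orange triangles) and without WDA mouse 7 and Res mouse 13 (purple diamonds). The female-biased (1.74, 1.39 and 1.6) and cholesterol (0.83, 0.80 and 1.04) lists stay on the high side, and the ductular list moves from -0.29 to 2.03.

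Among 14 hepatocyte markers, 3 were higher (Hnf4a, Serpina1a and Tdo2) and 1 lower without overlap, and 10 had a positive log2 difference. The list median was 0.18, and 0.03 without WDA mouse 7. Hnf4a was 676, 746 and 481 CPM on WDA and 898, 1021 and 864 CPM after resolution, and DESeq2 called none of the 3. The lower member, Ahsg (fetuin-A), a secreted inhibitor of calcification, was 14061, 11240 and 14159 CPM on WDA and 8570, 8431 and 7870 CPM after resolution (log2 -0.67 ± 0.26, DESeq2 adjusted p = 0.00271). Among 16 stellate cell and myofibroblast markers, 2 were lower and 0 higher without overlap, and Acta2, the smooth muscle actin of myofibroblasts, was 1.05, 1.52 and 4.08 CPM on WDA and 1.04, 1.25 and 6.52 CPM after resolution. The stellate list had a median of -0.11, and of -0.18 without WDA mouse 7. Of 12 Kupffer cell markers, 0 were higher or lower without overlap. Their median of 0.15 became 0.35 without WDA mouse 7, when DESeq2 called 2 higher. The summed list was highest in WDA mouse 7, at 817.8 CPM against 443.5 to 774.9 CPM elsewhere, but its members went both ways there. C1qc and Cd5l were highest in that mouse (131.9 and 239.6 CPM). Cd163 was lowest there, at 1.08 CPM, with 3.76 CPM in Res mouse 13 and 9.11 to 38.9 CPM in the other 4. Of 16 endothelial markers, 2 were higher, with Flt1, a VEGF receptor, at 9.44, 13.4 and 9.34 CPM on WDA and 19, 17 and 17.8 CPM after resolution (log2 0.74 ± 0.18, DESeq2 adjusted p = 0.0509). Cxcl13, a chemokine that draws B cells, was 0.983, 1.03 and 0.491 CPM on WDA and 15.3, 5.02 and 2.87 CPM after resolution (log2 3.21 ± 0.70, DESeq2 adjusted p = 0.0007). Of 9 antigen presentation and dendritic cell genes, 2 had a positive log2 difference with all mice (median -0.32) and 9 without WDA mouse 7 (median 1.03), when DESeq2 called 1 higher. Of 5 neutrophil markers, 5 were positive in both fits, with medians of 0.42 and 1.40, and DESeq2 called 0 with all mice and 3 higher without WDA mouse 7. Only 1 of these 5 reached the floor of 10 counts at the median depth in all WDA mice. Another 2 passed the filter through the Res mice, the group in which they are high, so their signs are partly set by the filter. Of 8 T, B and NK cell markers, 8 were positive (median 0.62) and DESeq2 called 0 in either fit. In this list 5 reached that floor in all WDA mice, with a median of 0.45. Another 2 passed the filter through the Res mice and 1 through the WDA mice. Jchain, which joins antibody units in plasma cells, was 0.917, 0.486 and 1.97 CPM on WDA and 2.63, 2.99 and 26.2 CPM after resolution (log2 3.21 ± 1.05, DESeq2 adjusted p = 0.0211).

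Of 23 cell cycle genes tested, 4 were lower and 1 higher without overlap, and the list median of -0.43 became 0.05 without WDA mouse 7. Here 4 members reached the floor of 10 counts at the median depth in all WDA mice but not in all Res mice. Aurka and Ccnb1 are among them and also among the 4 lower, so they passed the filter through the group in which they are high. Another 1 passed through the Res mice. Ccnd1 (cyclin D1), which drives entry into the cell cycle, was 91.5, 86.2 and 204 CPM on WDA and 28.3, 36.6 and 48.4 CPM after resolution (log2 -1.75 ± 0.39, DESeq2 adjusted p = 0.0013). The proliferation gene Mki67 overlapped, at 1.38, 2.55 and 10.4 CPM on WDA and 1.40, 1.97 and 2.71 CPM after resolution. S100a10 and Anxa2 encode partners of 1 membrane complex. S100a10 was 187, 147 and 193 CPM on WDA and 63.6, 74.3 and 59.4 CPM after resolution (log2 -1.42 ± 0.18, DESeq2 adjusted p = 2.52e-10). Anxa2 was 39.3, 26.5 and 102 CPM on WDA and 6.41, 7.41 and 17.4 CPM after resolution (log2 -2.43 ± 0.61, DESeq2 adjusted p = 0.00237). Every Res mouse lay below every WDA mouse in both.

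The other genes that edgeR called lower without WDA mouse 7 included Adam11, Hsd3b3, Wfdc2, Gstp3, Inmt and Rarres1. Adam11, a non-catalytic ADAM protein, was 109, 106 and 34.4 CPM on WDA and 15.6, 21.1 and 23.2 CPM after resolution (log2 -2.43 without WDA mouse 7, edgeR adjusted p = 0.0217). Hsd3b3, a steroid dehydrogenase, was 170, 158 and 91.4 CPM on WDA and 42.7, 39.6 and 53.0 CPM after resolution (log2 -1.87 without WDA mouse 7, edgeR adjusted p = 0.0308). Rarres1 overlapped through WDA mouse 7, at 67.3, 60.1 and 21.7 CPM on WDA and 26.3, 28.3 and 22.1 CPM after resolution.

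Kdm5b, the floxed H3K4 demethylase gene, was intact by design in all 6 mice. It was 23.7, 27.5 and 34.5 CPM on WDA and 18, 19.3 and 19.4 CPM after resolution, with no overlap but without a call in edgeR or DESeq2 (log2 -0.60 ± 0.17, adjusted p = 0.241 and 0.11). Its relatives Kdm5c and Kdm5a overlapped between the groups.

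The same stage comparison in WT males and in KO females (Kdm5b fl/fl with AAV-CMV-Cre) used other mice of the same 2 experiments. Of the 209 genes that DESeq2 called higher here, 209 were tested in KO females, where 195 were higher and edgeR called 107 of them, and 198 were tested in males, where 163 were higher and edgeR called 42. Of the 195 called lower, 192 of 195 were lower in KO females with 136 called, and 186 of 194 in males with 84 called. Over all genes tested in both comparisons, 51.0% were higher and 49.0% lower in KO females, and 52.7% were higher and 47.3% lower in males. Among the same genes edgeR called 10.1% higher and 10.3% lower in KO females and 4.90% higher and 6.0% lower in males. Experiment and stage coincide in those mice too.

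For single genes, Scd1 differed by -3.65 in KO females (edgeR adjusted p = 0.000105) and -2.74 in males (edgeR adjusted p = 0.00329), and Abcg5 by -1.62 and -1.54 (edgeR adjusted p = 0.00161 and 0.0067). The cholesterol list had 19 of 26 genes called higher by edgeR in KO females and 6 of 26 in males, with medians of 0.98 and 0.33. The test of the difference between the sexes called 1 gene of 13152 in edgeR (0.0076%) and 84 in DESeq2. The test of the difference between WT and KO females called 0 of 12940 in edgeR (0.0%), with 804 at an unadjusted p under 0.05 and a smallest adjusted p of 0.782, and 1 in DESeq2. A1bg differed by 3.32 in WT and 0.87 in KO females, and that difference of 2.46 had an unadjusted p of 0.00244 and an adjusted p of 0.782 in edgeR.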

How the data were processed

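Whole-liver mRNA of 6 WT females was sequenced on the BGISEQ platform, 1 mouse per library, and nothing says that any were technical repeats. The study's methods and the submitters' processing notes name HISAT and Bowtie2 and the build GRCm38.p6, and the tool that estimated counts is not given in the sources used here. The authors deposited expected (estimated) counts per gene, which are not normalized, and FPKM values, scaled by transcript length and library total, which were not used for a result. Between 6.94% and 8.49% of the counts of a library were not whole, so counts were rounded. The female tables list 17223 genes, 16182 in both, and a gene listed in 1 table was given 0 in the other. Depth was 16570678 to 18175886 per library, and 3 mice a group limit the precision. No deposited column was without a sample.

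Counts were analysed with edgeR 4.0.16 (filterByExpr, minimum count 10, TMM, glmQLFit and glmQLFTest), limma 3.58.1 and DESeq2 1.42.0 in R 4.3.3, with Benjamini-Hochberg adjustment over all genes tested and a threshold of 0.05. Differences between sexes and between WT and KO females were interaction terms. The fitting was tested on simulated counts. The study names DESeq2, which was an alternative here. The others were RLE and upper quartile scaling, 2 other filters, 1 fit of all 27 libraries, voom weights and leaving out each mouse. The comparison, the 38 gene lists and the tests were chosen with earlier results of these data known. Named genes were up to 12 per direction with the largest change called by DESeq2 without overlap, 2 per list by level and up to 4 by change, those of the study's panel, and up to 5 per direction called without WDA mouse 7. Further list members were named after their values were seen. Transcript identity came from GENCODE vM21, and promoters from RefSeq. A few list members are not reported here.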

Additional observations from a re-analysis of the deposited data

Results flagged for a closer look

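Orm2, an orosomucoid gene of the acute phase response, differed between the sexes. It was 31.2, 32.0 and 38.6 CPM in the WDA females and 21.5, 16.4 and 27.7 CPM in the Res females (log2 -0.63 ± 0.21), with all 3 Res females below the WDA females. In WT males the log2 difference was 2.19 (edgeR adjusted p = 0.00185). The difference between the sexes was -2.80 on the log2 scale (edgeR interaction, adjusted p = 0.0176; DESeq2 adjusted p = 1.25e-13), and it was the 1 gene of 13152 that edgeR called. Saa3, another acute phase gene, differed by -0.63 in females and 3.07 in males (edgeR interaction, adjusted p = 0.0999; DESeq2 adjusted p = 3.71e-06).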

How the results depend on the processing

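The number of genes called in edgeR stayed at 0 under RLE or upper quartile scaling, without a filter, with 10 counts in every library and with library totals unscaled, the last chosen after seeing the data. It became 404 in DESeq2, 840 with all 27 libraries in 1 fit and 420 with voom weights. Leaving out each mouse gave 0 to 15 calls, with 15 when WDA mouse 7 was left out. Without that mouse DESeq2 called 1089. Without WDA mouse 7 and Res mouse 13 together, chosen after seeing the data, edgeR called 15 and DESeq2 673. The difference between the sexes gave 1 call in edgeR, with and without WDA mouse 7, and 84 in DESeq2. The difference between WT and KO females gave 0 in both edgeR fits and 1 in DESeq2. The causes of these changes were not tested. Of 57 named genes whose groups overlapped, the log2 difference changed sign in 17 without WDA mouse 7, among them Spp1 (-0.81 to 2.52), Cyp2e1 (0.27 to -0.25), Cd74 (-0.19 to 1.03) and C1qc (-0.22 to 0.28). The median of 13 of 38 lists changed sign without WDA mouse 7, and 9 without both mice. No paired analysis was possible because the mouse numbers of the WDA group (5, 6 and 7) and of the Res group (1, 12 and 13) do not overlap. Depth leaves Cyp3a16 and Sult2a5, with 7 and 6 counts over the 3 WDA mice, without a precise fold.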
